A study of Mus musculus with 19 samples.

Results

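The transcription factors of the Sox, Fox, Gata, T-box and basic helix-loop-helix (bHLH) families that specify germ layers and tissues were examined as 1 group of genes. The group was a list of 42 names: 4 Gata, 8 T-box, 8 Fox, 8 Sox and 14 bHLH genes. Of these, 41 had a gene in the annotation, out of 23640 protein-coding and lincRNA genes in all, and *Sox1* did not. The 41 were read over their gene regions, from 2 kb before the start to the end of the gene, and *Sox1* is given separately at its promoter.

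The study had profiled chromatin of mouse embryonic stem cells (ESCs) by immunoprecipitation and sequencing (ChIP-seq) with antibodies to H3K27me3, H3K9me2 and H3K9me3. Cells labelled Wildtype (control) were compared with cells labelled *Dnmt1* KO (cKO in the text, DNMT1KO in the plots) at day 4, with 1 library of each per mark, and at day 8, with 2 of each per mark. There were 18 ChIP libraries and 1 input library of control chromatin. The labels give E14 as the strain of all cells, whereas the methods of the study name a C57BL/6 line whose *Dnmt1* alleles are flanked by loxP sites and are cut by a Cre recombinase after tamoxifen. The labels do not say whether the control libraries came from that line without Cre activity, nor whether the day 8 replicates were separate cultures, so the p-values below measure only the spread between these libraries. The labels give each of the 4 day 8 H3K27me3 libraries an antibody catalogue number of its own. These numbers run on by 1 from library to library, and the protocol in the labels names only the H3K9me2 antibody for all libraries. The labels thus do not settle which antibody was used, whereas the methods of the study list a single H3K27me3 antibody. The part of the antibody in any H3K27me3 difference was not tested.

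These factors are the classic targets of Polycomb group proteins in ESCs. Polycomb repressive complex 2 methylates histone H3 at lysine 27, and H3K27me3 covers the CpG-rich promoters of lineage genes that pluripotent cells do not express. H3K9me2 and H3K9me3 mark other kinds of silent chromatin. DNMT1 copies DNA methylation to the new strand at replication, so its loss leads to passive demethylation.

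Levels are log2 of observed over expected reads, summed over the 2 kb tiles of a region, where expected means all reads spread evenly. The mean tile lay at -0.37 to -0.38 on this scale in every library, so a level of 0 is slightly above the genome mean. Libraries held 14627174 to 26181489 reads in tiles, and 1 cKO library, the first day 8 replicate for H3K9me3, was shallow at 5669098. A lineage gene region held 83 to 3410 H3K27me3 reads in a control library, with a median of 1198. The day 8 H3K9me2 cKO library of replicate 2 stood apart in its Pearson r with the input over all gene regions. It was 0.90, against 0.63 to 0.72 in the other 5 H3K9me2 libraries. The Spearman rho was closer, at 0.31 against 0.22 to 0.29. Over 9 control and 9 cKO libraries, 1 tile of *Dnmt1* (chr9:20744001-20746000), chosen after its values were seen, held 72 and 10 reads, and each cKO library had 0 to 4 reads there and each control 6 to 11. Pluripotency genes had low H3K27me3 in controls, with *Pou5f1* at -2.32 and *Nanog* at -1.64, and 12 of them had a median of -1.27, with *Klf4* (1.43) and *Esrrb* (0.87) the highest. Of 7 fibroblast genes, which feeder cells would express, the median was -0.44, and *Thy1* (2.07) and *Col1a1* (2.00) carried H3K27me3.

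H3K27me3 covered nearly all of the lineage genes in control ESCs. The median level of the 41 genes was 3.53 against -0.55 for all gene regions, and the range was 0.48 (*Myf5*) to 4.47 (*Tbx2*). A level of at least 2, which is 4-fold over expected, was reached by 34 of 41 genes and by 4.63% of all gene regions. The 7 genes below it were *Tbx5*, *Tbx15*, *Tbx18*, *Tbx20*, *Gata4*, *Olig1* and *Myf5*. The list was chosen with earlier results of these data known. The 98 other genes of these families had a median of 1.28, and 43 of them reached a level of 2. The SD of a gene over the 3 control libraries had a median of 0.25, so the upper end of the order was not resolved: *Tbx2* (4.47 ± 0.29, SD, n = 3), *Tbx1* (4.45 ± 0.25) and *Neurog1* (4.44 ± 0.29) differed by less than their spread. In the input the median of the 41 regions was -0.36, close to the -0.30 of all gene regions. Regions of 12 of the 41 genes overlapped another annotated gene, and 0 shared a tile with another lineage gene.

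The promoters shown are those at both ends of the H3K27me3 range and that of the gene with the most negative day 8 difference, with their CpG sites counted. Each is the 250 bases before the annotated start in NCBIM37, on the strand of the gene, 5′ to 3′, with CpG sites in capitals. *Tbx2*, a repressor that patterns the heart and limb, lies at chr11:85645803-85646052 (plus strand) and has 25 CpG sites. *Myf5*, a founder of the skeletal muscle program, lies at chr10:106923191-106923440 (minus strand) and has 3. *Sox21*, which acts in neural progenitors and had the most negative day 8 difference in H3K27me3, lies at chr14:118636253-118636502 (minus strand) and has 17.
Tbx2: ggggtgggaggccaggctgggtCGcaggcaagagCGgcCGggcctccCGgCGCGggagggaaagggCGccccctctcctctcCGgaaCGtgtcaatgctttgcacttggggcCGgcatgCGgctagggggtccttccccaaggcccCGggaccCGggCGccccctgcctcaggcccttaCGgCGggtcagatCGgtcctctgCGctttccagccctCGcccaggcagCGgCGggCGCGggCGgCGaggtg
Myf5: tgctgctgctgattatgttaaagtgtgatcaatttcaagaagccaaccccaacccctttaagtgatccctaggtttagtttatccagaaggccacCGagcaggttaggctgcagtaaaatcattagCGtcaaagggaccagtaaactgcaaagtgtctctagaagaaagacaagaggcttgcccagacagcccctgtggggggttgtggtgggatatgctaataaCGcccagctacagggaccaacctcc
Sox21: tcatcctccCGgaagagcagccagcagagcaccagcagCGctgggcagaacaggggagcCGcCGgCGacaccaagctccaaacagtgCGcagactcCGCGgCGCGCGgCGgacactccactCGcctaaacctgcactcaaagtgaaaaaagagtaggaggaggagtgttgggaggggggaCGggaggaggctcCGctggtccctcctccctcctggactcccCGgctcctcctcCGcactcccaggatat
Over all 23640 gene starts the median number of CpG sites in such a window was 8, and 92.7% of the windows held at least 1, counted as the letters CG, which read the same on both strands. At least 25 sites, as in *Tbx2*, were held by 12.3% of gene starts, at least 17 by 28.2% and at least 3 by 75.7%. The median over the 41 lineage genes was 15.

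By family, the Fox genes were the highest and the most uniform. Their 8 regions ran from 3.81 to 4.36 with a median of 3.99. *Foxc2*, which acts in mesoderm and lymphatic development, had 4.21 at day 4 and 4.61 and 4.27 at day 8 in controls. *Foxa2*, a pioneer factor of endoderm, was the lowest Fox gene at 3.53, 4.16 and 3.75. Even the lowest Fox gene was thus above the median of the 41.

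The 7 Sox genes had a median of 3.51, from 2.32 (*Sox10*) to 3.86 (*Sox21*). *Sox21* had 3.65 at day 4 and 4.05 and 3.86 at day 8, and *Sox10*, a neural crest factor, had 2.36, 2.58 and 2.02. The 2 genes did not overlap in control libraries. The SoxF genes of endoderm and endothelium were split, with *Sox17* at 3.64 ± 0.25 and *Sox18* at 3.53 ± 0.34 (SD, n = 3) but *Sox7* at 2.71 ± 0.24.

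The 14 bHLH genes had a median of 3.41 and the widest range, 0.48 to 4.44. The proneural gene *Neurog1*, which commits progenitors to sensory neurons, had control levels of 4.30 at day 4 and 4.78 and 4.25 at day 8. *Myf5* had 0.53 at day 4 and 0.37 and 0.55 at day 8. *Olig1* (0.55 ± 0.18, SD, n = 3) was low while its neighbour on chromosome 16, *Olig2* (2.64 ± 0.27), and *Olig3* (3.14 ± 0.25) were not, although all of them act in oligodendrocyte or neural tube development. *Myod1*, the other muscle determination factor listed, lay between at 2.28 ± 0.28.

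Gata and T-box genes had lower medians, 2.40 and 2.17. *Gata2*, a factor of blood progenitors, had control levels of 3.73, 4.19 and 3.70, and *Gata4*, of heart and endoderm, had 1.79, 2.06 and 1.80. *Tbx2* had 4.27, 4.81 and 4.34, and *Tbx20*, a heart factor, had 0.86, 1.24 and 0.98. The regions of these families were long, with medians of 13.5 tiles for Gata and 17 for T-box against 3 to 5 for the other 3 families. When only the tiles within 2 kb of the start were read, the medians became 3.79 for Gata and 3.43 for T-box, beside 4.12 for Fox, 3.51 for Sox and 3.41 for bHLH. At the promoter the Gata median thus lay above those of Sox and bHLH, and the T-box median beside that of bHLH.

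**Figure D1:**
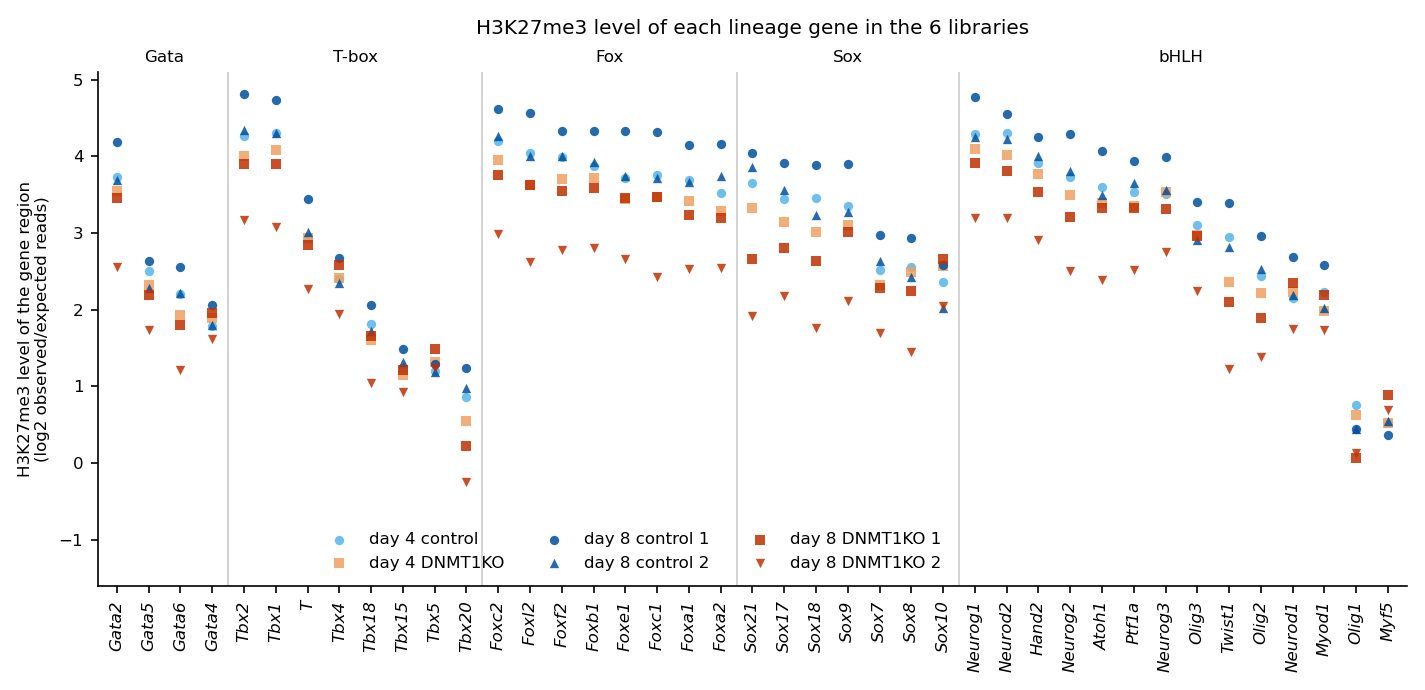
H3K27me3 level (log2 observed over expected reads, vertical axis) of the 41 lineage genes, by family and in falling order of the control mean, with 1 point for each of the 6 libraries. Most genes sit above 2 in controls (blue), and in 33 genes both day 8 cKO points (red) lie below both day 8 control points (dark blue).

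The mark was centred on the gene starts. Among the tiles of a gene's own region, the one with the most H3K27me3 reads in controls lay within 2 kb of the start tile in 34 of 41 genes. Regions had a median of 4 tiles, and the shortest had 3, so gene length largely set this count. At the start tile the median level over the 41 genes was 3.64 in the day 4 control and 4.09 and 3.53 in the day 8 controls. At 20 kb upstream it was 0.27, 0.18 and 0.31. A run of adjoining tiles at a level of at least 2 that touched the promoter was taken as a domain, with the reads of the 2 day 8 controls pooled. The median domain was 16 kb. *Hand2*, a heart and limb factor, had the widest at 46 kb, followed by *Neurod2*, a factor of cortical neurons, at 42 kb. *Olig1* and *Myf5* had none.

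The other 2 marks were low on these genes. Each level is relative to the reads of its own library, and the 3 contrasts between marks share the control libraries. H3K9me2 had a control median of -1.99 over the 41 genes, below the -0.90 of all gene regions, and H3K9me3 had -1.10 against -0.91. H3K27me3 exceeded H3K9me3 in the control libraries in 41 of 41 genes (limma over 9 control libraries, adjusted p from 2.68e-08 to 4.43e-05), and 43.7% of all regions tested were called in that direction. The difference ran from 1.22 (*Myf5*) to 5.88 (*Foxc2*) on the log2 scale. H3K27me3 also exceeded H3K9me2 in 41 of 41 genes, against 45.3% of all regions, by 0.87 (*Myf5*) to 7.92 (*Foxc2*). These genes were listed with earlier results of the data known.

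H3K9me2 was below H3K9me3 in 20 of 41 genes in the same fit, beside 22.7% of all regions, and above it in 4, beside 20.8%. The 20 included 7 of the 8 Fox genes, led by *Foxc2* (-2.05, SE 0.40, limma adjusted p = 0.0051). The 4 were *Gata5*, *Tbx5*, *Tbx15* and *Myf5*, with differences of 0.35 to 0.44, and 0 of them was called when the day 4 controls or the second day 8 controls were left out. Without the day 4 controls 13 genes were called lower, beside 10.6% of all regions. Across the 41 genes, which are not independent replicates and share libraries and base composition, control levels of H3K27me3 and H3K9me2 had a Pearson r of -0.65 and a Spearman rho of -0.68. *Olig1*, low in both (0.55 and -2.73), lay off that trend. The read numbers behind H3K9me2 were small. A lineage gene region held a median of 17 H3K9me2 reads in control libraries and as few as 2.

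**Figure D2:**
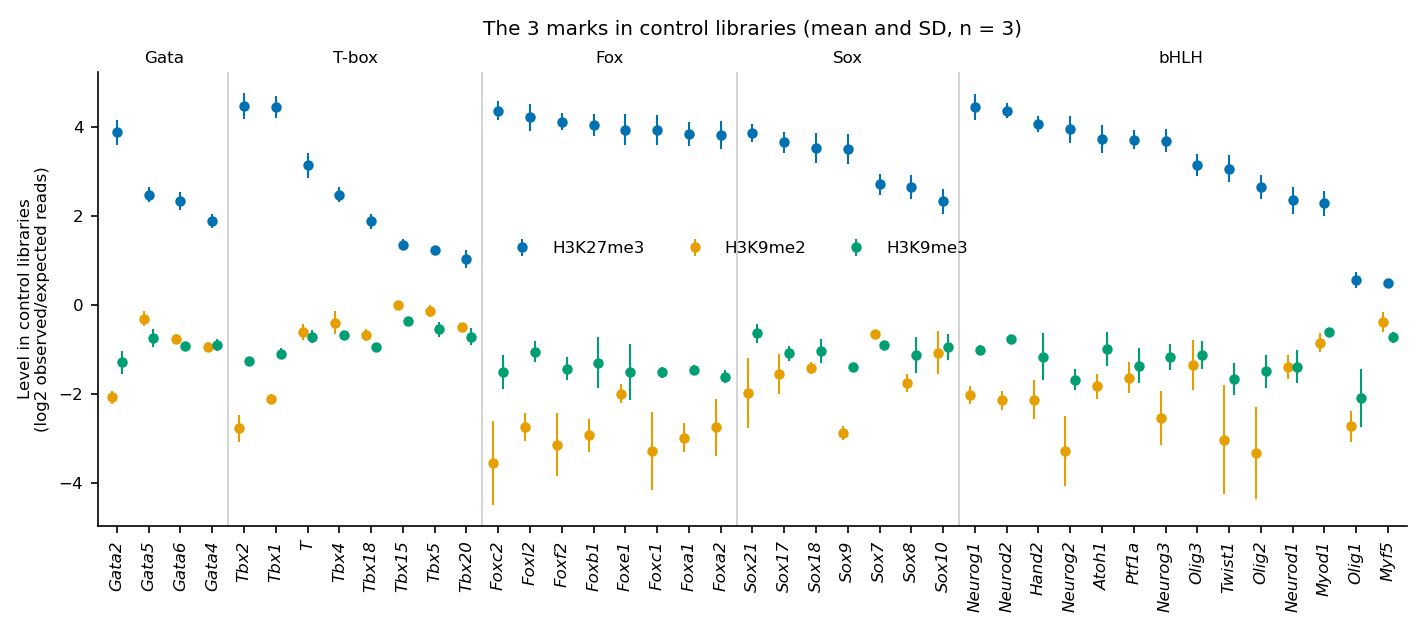
Control levels of H3K27me3, H3K9me2 and H3K9me3 (log2 observed over expected reads, vertical axis) for the 41 lineage genes, with points for the mean and bars for the SD over 3 control libraries. H3K27me3 lies above both other marks in every gene, by the least in *Myf5*, and the H3K9me2 median is lower for the Fox genes (-2.96) than for the other 4 families.

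After deletion of *Dnmt1*, H3K27me3 on the lineage genes was lower at day 8 in both pairs of libraries. The median difference of cKO minus control was -0.74 in replicate 1 and -1.09 in replicate 2, with an SD of 0.25 between these medians (n = 2). The median of the mean differences was -0.93, a 1.90-fold lower level. Each level is relative to the reads of its own library, so an absolute change of the mark was not measured. A lower level in every cell and its loss from a share of the cells cannot be told apart in bulk chromatin either. Over all gene regions the medians were -0.10 and -0.19, and with each library centred on its median region the lineage genes were at -0.88. Both cKO libraries lay below both controls in 33 of 41 genes, beside 41.0% of all regions tested. The exceptions were *Gata4*, *Tbx4*, *Tbx5*, *Sox10*, *Neurod1*, *Olig3* and *Myod1*, whose groups overlapped, and *Myf5*, whose cKO levels were both above.

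The test did not call these differences. With limma, 0 of 41 genes passed at an adjusted p threshold of 0.05, and 0 of 22977 regions tested did (0.0%). The lowest adjusted p of a lineage gene was 0.12 (*Tbx20*). At an unadjusted p under the same threshold 9 genes were lower, beside 17.9% of all regions, and 0 higher, beside 1033 of 22977 regions. Limma-voom on recovered reads called 0 genes as well. Across the lineage genes the first replicate was higher than the second in both genotypes, with medians of 3.89 and 3.28 in controls and 2.85 and 2.18 in cKO. *Tbx20* was the 1 lineage gene called lower when the first cKO library was left out, beside 2.11% of all regions, and again when the second control library was left out, beside 4.55%. The lone library of an arm was then assumed to vary like the other arm.

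When the promoter tiles alone were tested, 5 of 41 genes were lower, *Tbx20*, *Sox18*, *Sox21*, *Olig2* and *Twist1*, beside 12.9% of all promoters tested. Their limma adjusted p-values ran from 0.0015 (*Sox21*, -1.84) to 0.039 (*Sox18*, -1.36).

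A level at least 2-fold lower in cKO in both pairs was seen in 7 of 41 genes, beside 1.72% of all regions. They were *Sox17*, *Sox18*, *Sox21*, *Neurog2*, *Olig2*, *Twist1* and *Tbx20*. *Sox21* had the most negative difference: it had 4.05 and 3.86 in day 8 controls and 2.66 and 1.92 in cKO. Its groups did not overlap, and the difference was -1.67 (SE 0.41, limma adjusted p = 0.13). *Twist1*, a mesoderm and neural crest factor, had 3.40 and 2.82 in controls and 2.10 and 1.23 in cKO, a difference of -1.44 (SE 0.39, limma adjusted p = 0.14). *Sox17* and *Sox18*, like *Sox21*, had lower cKO levels without overlap, whereas the groups of *Sox10* overlapped. *Sox17* had 3.92 and 3.57 in controls and 2.80 and 2.18 in cKO, and *Sox18* had 3.89 and 3.23 against 2.63 and 1.77. *Neurog2*, a proneural gene like *Neurog1*, had 4.29 and 3.81 against 3.21 and 2.50. *Olig2* had 2.96 and 2.53 against 1.89 and 1.39, while its neighbour *Olig1* had 0.45 in both controls and 0.07 and 0.13 in cKO. *Tbx20* had 1.24 and 0.98 in controls and 0.22 and -0.24 in cKO, so that the difference was large in a gene whose level over the whole region was low. Its promoter tiles had 3.48 and 3.21 in controls and 1.97 and 1.56 in cKO.

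*Myf5* had the largest positive difference. Its levels were 0.37 and 0.55 in day 8 controls and 0.89 and 0.69 in cKO, with 105, 127, 146 and 165 reads. The groups did not overlap, and the difference was 0.33 (SE 0.17, limma adjusted p = 0.28). *Sox10* had 2.58 and 2.02 in controls and 2.66 and 2.05 in cKO, and *Tbx5* differed by 0.20 and 0.05. *Gata4* differed by -0.11 and -0.18 over its whole region but went the other way at its promoter, with 1.32 and 1.50 in controls and 1.89 in the lower of the cKO libraries (difference 0.64, limma adjusted p = 0.23). Its tile with the most H3K27me3 lay 26 kb into the gene from the annotated start.

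By family, the median day 8 difference was -1.05 for Fox, -1.02 for Sox, -0.88 for bHLH, -0.69 for Gata and -0.61 for T-box. In the promoter tiles the families lay closer, from -0.89 (T-box) to -1.07 (Fox). The Fox genes differed by similar amounts: all 8 had both cKO libraries below both controls, with mean differences between -1.16 (*Foxl2*) and -0.93 (*Foxb1*). *Foxc2* had 4.61 and 4.27 in controls and 3.76 and 2.99 in cKO, and *Foxa2* had 4.16 and 3.75 against 3.19 and 2.54. The bHLH genes ranged from -1.44 (*Twist1*) to 0.33 (*Myf5*), and *Neurog1* had 4.78 and 4.25 in controls against 3.91 and 3.19 in cKO. *Gata2* had 4.19 and 3.70 against 3.45 and 2.56, and *Tbx2* had 4.81 and 4.34 against 3.90 and 3.16. In *Foxc2*, *Neurog1*, *Gata2* and *Tbx2*, the highest genes of their families, both cKO levels stayed above 2, whereas *Sox21*, the highest Sox gene, had 1.92 in the second cKO library. *T*, the brachyury gene of mesoderm, had 3.45 and 3.01 against 2.85 and 2.26, and *Gata6*, of primitive endoderm, had 2.55 and 2.22 against 1.81 and 1.22. Neither pair of groups overlapped.

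**Figure D3:**
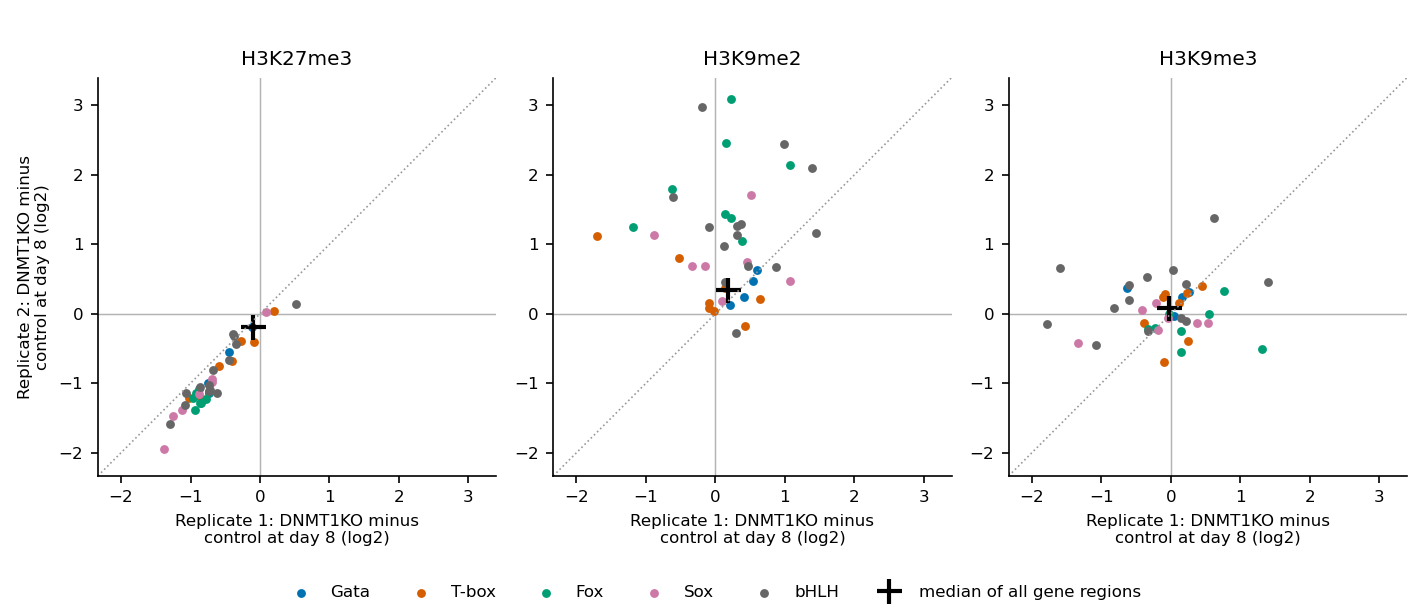
Day 8 difference of cKO minus control (log2) in replicate 1 (horizontal axis) and replicate 2 (vertical axis) for each lineage gene, coloured by family, in 1 panel per mark, with the median of all gene regions as a cross and equality as a dotted line. For H3K27me3 most points lie below 0 in both replicates, down to -1.39 and -1.94, and for H3K9me3 they surround 0. For H3K9me2 the points run from -1.70 to 1.45 in replicate 1 and from -0.28 to 3.10 in replicate 2.

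The difference lay at the gene starts and faded outward. At the start tile the median over the 41 genes was 4.09 and 3.53 in day 8 controls and 3.25 and 2.35 in cKO. At 10 kb downstream of the start tile it was 1.59 and 1.23 in controls and 1.65 and 1.21 in cKO, so the groups overlapped there. The median region held 4 tiles, so in most genes that tile lay beyond the gene end. Domains at a level of at least 2 were narrower with the 2 cKO libraries pooled in 19 genes, equal in 19 and wider in 3, and their summed width was 526 kb against 632 kb. The pooled domain of *Twist1* was 18 kb in controls and 2 kb in cKO, that of *Tbx20* 16 and 2 kb, and *Olig2* had 16 kb in controls and none in cKO. In single libraries *Olig2* had 16 and 10 kb in day 8 controls and 4 and 0 kb in cKO. *Twist1* had 8 kb in the day 4 control. The 3 wider ones were *Gata4* (4 and 10 kb), *Sox10* (8 and 12 kb) and *Foxf2* (18 and 20 kb). A domain drawn at a fixed level depends on the level itself, so its width is not a separate measurement.

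**Figure D4:**
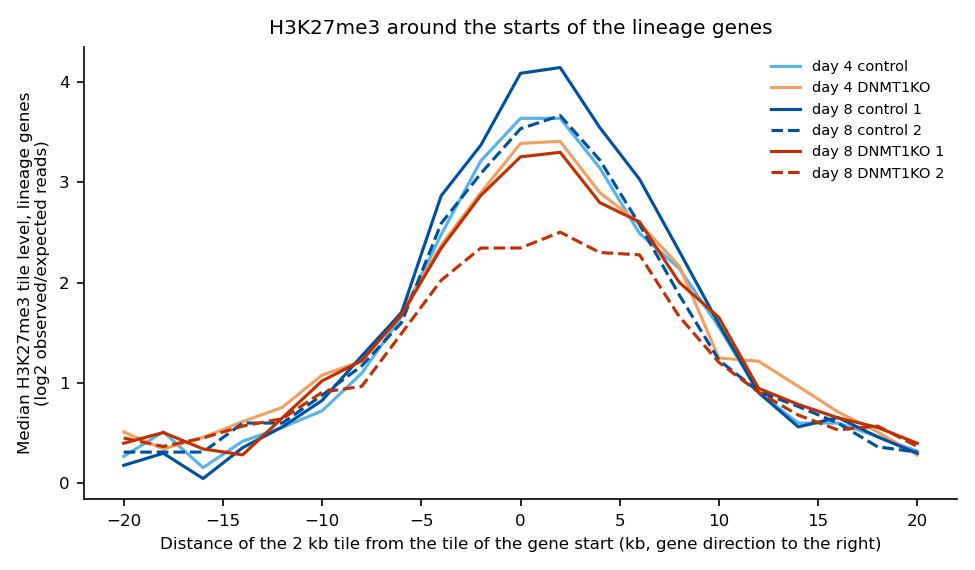
Median H3K27me3 tile level over the 41 lineage genes (log2 observed over expected reads, vertical axis) by distance of the 2 kb tile from the tile of the gene start (kb, horizontal axis), with 1 line per library. The lines meet beyond about 10 kb, and at the start tile the day 8 cKO libraries reach 3.25 and 2.35 against 4.09 and 3.53 in the controls.

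Other regions rich in H3K27me3 were also lower in cKO. A day 4 control level of at least 2, a library that does not enter the day 8 comparison, was found in 1019 gene regions, 34 of them lineage genes. The other 985 had day 8 medians of -0.66 and -0.87, and the 34 lineage genes had -0.76 and -1.13. Both cKO libraries lay below both controls in 75.5% of the 985 and in 85.3% of the 34. A level at least 2-fold lower in both pairs was seen in 12.3% and 17.6%. The lineage genes also had more H3K27me3 to begin with, with a control median of 3.72 against 2.81.

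The more negative differences were found at CpG-rich promoters and at genes with more H3K27me3 in controls. Across the 41 genes, the CpG density within 2 kb of the start and the day 8 difference of the region had a Pearson r of -0.58 and a Spearman rho of -0.55. Across all 23640 regions these were -0.42 and -0.44. For the control H3K27me3 level and the day 8 difference of the 41 genes they were -0.70 and -0.605. That level and the difference share the day 8 control libraries. The parts of CpG density and of the control level were not tested. Genes are not independent replicates, and the points share their libraries and base composition. The median density was 37.2 CpG sites per kb over the 41 genes and 17.8 over all gene regions. Below the median of the 41, *Myf5* (18.2 CpG sites per kb), *Tbx5* (24.2) and *Gata4* (16.5) had small differences. *Sox17* (19.3) and *Tbx20* (24.0), also below it, had large negative differences. Subtracting each library's trend over GC content left a median day 8 difference of -0.76 in place of -0.93.

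**Figure D5:**
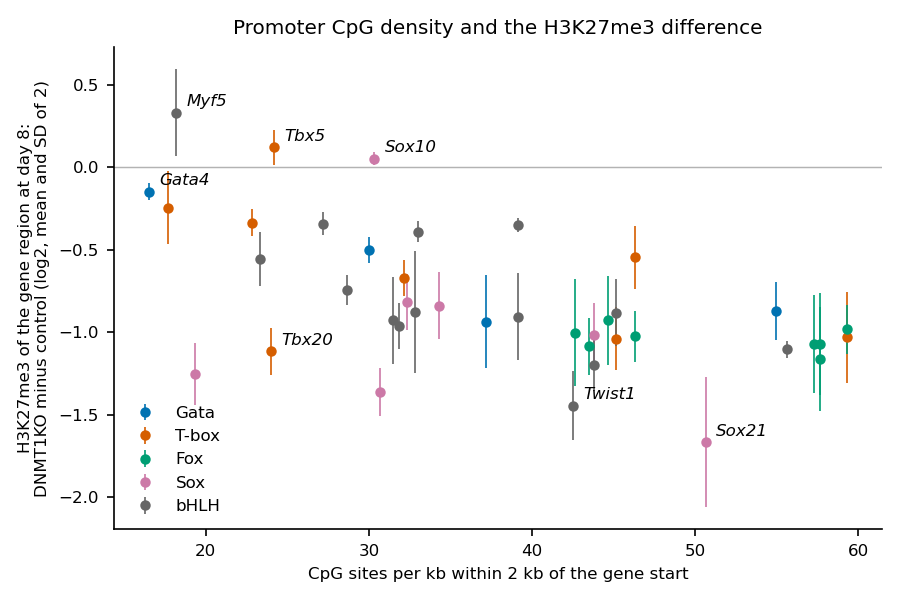
Day 8 H3K27me3 difference of cKO minus control over the gene region (log2, mean with SD of 2 replicates, vertical axis) against CpG sites per kb within 2 kb of the start (horizontal axis) for the 41 lineage genes, coloured by family. The values above 0 belong to *Myf5*, *Tbx5* and *Sox10*, at 18.2 to 30.3 sites per kb, and *Sox21* at 50.7 sites per kb is the lowest.

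At day 4, with 1 library per genotype and no test, the difference was small. The median over the 41 genes was -0.21, beside -0.07 over all regions, and 33 of 41 genes were lower, beside 62.0% of all regions. The exact binomial 95% limits, which cover counting error only, lay below 0 in 30 genes and above 0 in 3. Such limits narrow with read number. Their share over all regions was not counted, so these counts cannot be read as particular to the lineage genes. The values ran from -0.58 (*Twist1*, limits -0.79 to -0.37) to 0.22 (*Sox10*, limits 0.07 to 0.36). A level at least 2-fold lower was seen in 0 of 41 genes, beside 0.863% of all regions. *Sox21* had 3.65 in the control and 3.32 in cKO. The day 8 effect was compared with the day 4 effect by an interaction in limma, in which the lone day 4 libraries were assumed to vary like the others, and 0 of 41 genes passed for H3K27me3, beside 0.0% of all regions. At an unadjusted p under 0.05 that interaction also gave 0 lineage genes, beside 3.88% of all regions.

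H3K9me2 was higher at day 8 in cKO at the median, but mainly in 1 of the 2 replicates. The median difference over the 41 genes was 0.23 in replicate 1 and 0.97 in replicate 2, whose cKO library had the high Pearson r with the input. All gene regions had 0.18 and 0.35. The median of the mean differences of the 41 genes was 0.58. It was 0.26 with each library centred on its median region and 0.34 with the GC trend subtracted. Both cKO libraries lay above both controls in 21 of 41 genes, beside 34.5% of all regions. With limma 0 of 41 genes passed, beside 0.337% of all regions, and at an unadjusted p under 0.05 there were 4 genes, all higher, beside 6.35% of all regions in that direction. The part of the replicate 2 cKO library in this was not tested.

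A level at least 2-fold higher in both pairs was seen for H3K9me2 in 3 of 41 genes, *Foxc1*, *Olig2* and *Twist1*, beside 0.945% of all regions. *Olig2*, which specifies motor neurons and oligodendrocytes, had the largest mean difference. It had -4.43 and -3.18 in day 8 controls and -3.04 and -1.08 in cKO, which were 4, 7, 9 and 42 reads. The groups did not overlap, and the difference was 1.75 (limma SE 1.11, adjusted p = 0.67). *Twist1* had 3 and 8 reads in controls and 7 and 25 in cKO, and its groups overlapped. *Myod1* had the lowest adjusted p (0.32 by limma): it had -1.04 and -0.90 in controls and -0.16 and -0.22 in cKO, from 42, 34, 66 and 76 reads. *Tbx2* had the most negative difference at -0.29, with -2.77 and -2.48 in controls and -4.47 and -1.36 in cKO, so that its groups overlapped and its replicates went opposite ways.

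The family medians of the H3K9me2 difference depended on the replicate. In replicate 1 they were 0.48 for Gata, 0.31 for bHLH, 0.19 for Fox, 0.093 for Sox and -0.059 for T-box. Replicate 2 is the pair with the cKO library of the high Pearson r with the input. Its medians were 1.62 for Fox, 1.20 for bHLH, 0.68 for Sox, 0.35 for Gata and 0.19 for T-box. All 4 Gata genes had both cKO libraries above both controls. *Gata4* had -1.03 and -0.82 in controls and -0.49 and -0.35 in cKO, with 350 to 679 reads, and *Gata2* had -2.02 and -1.99 against -1.42 and -1.36. At day 4 the median H3K9me2 difference was 0.08. Of the 35 genes with a mean of at least 10 reads, 0 were at least 2-fold higher, beside 1.67% of all regions, and 1 was at least 2-fold lower, beside 0.258%. This was *Ptf1a*, of the pancreas and hindbrain, at -1.21 (exact binomial 95% limits -2.50 to -0.0026). In the interaction of day and genotype 0 genes passed for H3K9me2, beside 0.0% of all regions, and 0 lineage genes did at an unadjusted p under 0.05.

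H3K9me3 showed no common direction. The median day 8 difference was -0.03 in replicate 1 and -0.01 in replicate 2, beside -0.03 and 0.08 over all regions. Both cKO libraries lay below both controls in 6 genes, beside 20.3% of all regions, and above in 10, beside 27.8%. The 10 included *Gata4*, *Gata5*, *Tbx4*, *Tbx5* and *Tbx15*. With limma 0 of 41 genes passed, beside 0.0% of 22806 regions, and at an unadjusted p under 0.05 there were 2 lower genes (*Sox18*, *Neurod2*), beside 5.26% of all regions, and 3 higher ones (*Tbx5*, *Neurod1*, *Olig1*), beside 9.94%. *Tbx5* rested on the most reads: it had -0.50 and -0.75 in controls and -0.04 and -0.35 in cKO, from 350, 304, 145 and 403 reads.

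*Atoh1*, which specifies hair cells and cerebellar granule cells, had the most negative H3K9me3 difference. It had -0.69 and -1.43 in day 8 controls and -2.47 and -1.59 in cKO, from 34, 21, 3 and 19 reads, and the difference was -0.96 (limma SE 0.40, adjusted p = 0.34). The library with 3 reads is the shallow one, and the second pair alone differed by -0.15. *Olig1* had the largest positive difference, with -1.87 and -2.83 in controls and -1.25 and -1.44 in cKO, from 15, 8, 7 and 21 reads (difference 1.01, limma adjusted p = 0.30). At day 4, 1 of 41 genes was at least 2-fold higher, beside 0.399% of all regions. It was *Foxe1*, a thyroid factor, at 1.00 (exact binomial 95% limits -0.05 to 2.16). In the interaction of day and genotype 0 genes passed for H3K9me3, beside 0.0% of all regions, and 1 gene was lower at an unadjusted p under 0.05, beside 1.7% of all regions.

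*Sox1*, an early neural factor, was placed by the RefSeq promoter sequence of GRCm38.p6, which matched NCBIM37 once, at chr8:12395269-12395568 on the plus strand. Over the 3 tiles within 2 kb of its start, H3K27me3 was 3.08 in the day 4 control and 2.91 in cKO. At day 8 it was 2.79 and 3.38 in controls and 1.98 and 1.95 in cKO, and the groups did not overlap. H3K9me2 rested on 4 to 26 reads there and H3K9me3 on 6 to 23. *Sox1*  enters none of the counts above.

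The remaining genes of these families were more mixed. There were 98 others with a gene region, with a control H3K27me3 median of 1.28, and 43 of them were at a level of at least 2. The highest were *Foxb2* (4.41 ± 0.27, SD, n = 3), *Foxd1* (4.31 ± 0.25) and *Foxf1a* (4.23 ± 0.15). The lowest were *Foxn2* (-2.23 ± 0.07), *Mga* (-1.73 ± 0.20) and *Foxm1* (-1.68 ± 0.20), a cell cycle factor. Their day 8 medians were -0.45 and -0.59. Both cKO libraries lay below both controls in 61 of the 98 genes (62.2%), beside 41.0% of all regions tested. At an unadjusted limma p under 0.05, 26 genes were lower, beside 17.9% of all regions, and 3 were higher, beside 1033 of 22977 regions.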

How the data were processed

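ChIP-seq of H3K27me3, H3K9me2 and H3K9me3 and 1 input were analysed in 19 libraries. The table deposited by the authors holds log2 values of observed over expected reads per 2 kb tile, although the study's methods state another tile width. Reads had been trimmed with Trim Galore, mapped to NCBIM37 with Bowtie2 (2.2.9 in the submitters' processing notes) and filtered on mapping quality, and the input had not been subtracted. Whole reads were recovered from the steps of the values, and 100% of values under 20 reads were whole within 0.01. Depths covered 5669098 to 26181489 reads, and the table has 0 columns of no sample.

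Reads and expected reads were summed over tiles from 2 kb upstream of each gene start to its end (gencode vM1, NCBIM37, 22367 protein-coding and 1273 lincRNA genes), with a sum of 0 set to 0.9 reads. Day 8 groups and control marks were compared with limma 3.58.1 (R 4.3.3, trended variance) over all regions with a mean of at least 10 reads, with Benjamini-Hochberg adjustment and a threshold of 0.05. The pipeline was tested on simulated data. A day 4 difference has 1 library per group and no test, only exact binomial 95% limits. These intervals cover counting error only. With 2 libraries against 2, an exact two-sided permutation p cannot go below 0.333. Replicate libraries differed by more than sampling noise.

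The members and lists were chosen with earlier results of these data known. Values in every library are given for the highest and lowest gene of each family by control H3K27me3 and for the genes with the largest fall and rise of each mark at day 8, and other members are named where a count turns on them. Other family genes were matched by symbol, leaving out Gatad, Tbxa2r, Tbxas1, Foxred, Foxl2os and Sox2ot. *Sox1* was located by its RefSeq promoter, and the interaction of genotype and day was added after the data were seen. Alternatives were the mean of tile values, centring, no filter, no trend, limma-voom, GC correction, promoter tiles alone, a replicate block, the level against input, day 8 controls alone and leaving out each library.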

Additional observations from a re-analysis of the deposited data

Results flagged for a closer look

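Genes that were higher in cKO at day 4 and lower in both day 8 pairs, or the reverse, were looked for in each mark. The day 4 comparison has 1 library per genotype. The interaction of genotype and day in limma called 0 of 41 genes in each mark. The share of all gene regions with such a reversal was not counted, so the counts below cannot be read as particular to these genes. Median H3K9me3 differences were small, at 0.04 at day 4 and -0.03 and -0.01 at day 8, so signs there can turn on small values. For H3K27me3 there were 5 such genes, *Gata4*, *Tbx4*, *T*, *Neurog3* and *Neurod1*, which were 0.01 to 0.10 higher at day 4 and lower at day 8. *T* differed by 0.01 at day 4 and by -0.60 and -0.75 at day 8. For H3K9me2, 9 genes were lower at day 4 and higher at day 8, among them *Olig2* (-0.45, then 1.40 and 2.10) and *Foxc1* (-1.32, then 1.08 and 2.14). For H3K9me3, 5 genes were lower and then higher, *Gata5*, *Foxf2*, *Neurod1*, *Olig1* and *Twist1*, and 8 were higher and then lower, *Tbx2*, *Foxa2*, *Foxe1*, *Foxl2*, *Sox18*, *Neurog3*, *Neurod2* and *Atoh1*.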

How the results depend on the processing

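The count of lineage genes called lower in H3K27me3 at day 8 was 0, and it was 5 in promoter tiles alone and 0 to 1 when a library was left out. The labels number the day 8 replicates, and same-numbered libraries deviated together (correlations of 0.38 for H3K27me3, 0.24 for H3K9me2 and 0.11 for H3K9me3), but with 2 pairs they share only a number. A replicate block called 35 genes lower in H3K27me3, with 3873 regions lower and 1129 higher among all, and 0 genes over days 4 and 8 together. For *Sox21* the adjusted p of limma was 0.0016 with the block. The count of genes with H3K9me2 below H3K9me3 went from 20 to 13 with day 8 controls only and to 13 to 18 with a replicate left out. The count above went from 4 to 0 with day 8 controls only, promoter tiles or mean tile values, to 7 with GC correction and to 0 to 3 with a replicate left out.

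Centring moved the median day 4 difference of H3K27me3 to -0.17, that of H3K9me2 to -0.081 and the day 8 difference of H3K9me3 to -0.048. GC correction moved the last to 0.013. Promoter tiles moved it to -0.21 and the day 4 H3K9me2 median to 0.26. The medians of all gene regions for cKO minus control were 0.11 at day 4 and 0.29 at day 8 for H3K9me2. With a replicate pair left out the day 8 medians ran from -1.09 to -0.74 for H3K27me3, from 0.23 to 0.97 for H3K9me2 and from -0.03 to -0.01 for H3K9me3.

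Control H3K27me3 of the Gata family was 1.48 by mean tile values, 1.96 with GC correction, 3.79 in promoter tiles and 2.65 against the input. T-box was at 1.43, 3.43 and 2.47 by mean tile values, promoter tiles and input. GC correction gave 3.07 for Fox, 2.52 for Sox and 2.79 for bHLH, and the input gave 4.39 for Fox and 3.80 for bHLH. The day 8 medians became -0.24 for Gata and -0.25 for T-box by mean tile values, -0.91 and -0.89 in promoter tiles, and -0.38 for T-box with GC correction. For *Tbx2* the H3K9me2 difference of -0.29 became 0.24 by mean tile values, 0.12 with the block over both days, and -1.84 to 1.27 when a library was left out. The cause was not tested. Of the other values of comparisons, 185 kept their side or moved by less than 1 SD or 1.5 times. Low read numbers limit H3K9me2 and H3K9me3, whose lineage gene regions held medians of 17 and 38 reads in controls.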
